A study of Mus musculus with 11 samples.

Results

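The complement cascade is represented here by 8 genes, C1ra, C2, C4b, C3, Cfb, Serping1, C3ar1 and C5ar1. They were taken by symbol from a table of 38406 genes, all 8 were found once, and all 8 were among the 13215 genes abundant enough to be tested. The tissue was back skin of female C57BL/6 mice aged 8 to 10 weeks, shaved and then treated with 125 mg of a 5% imiquimod cream each day for 4 days, with the skin taken 24 hours after the last dose. Imiquimod activates the innate receptor TLR7, and the cream is a standard way to raise a psoriasis-like inflammation in mice. The samples were 6 mice without Trex2 (Trex2 KO, replicates 7 to 12) and 5 wild-type mice (WT, replicates 2 to 6). Both genotypes had the cream, no skin without it was analysed here, and the labels do not say which alleles or litters the mice came from. Trex2 encodes a DNA exonuclease of keratinocytes. It stood at 0.794 to 3.47 normalized counts in the Trex2 KO libraries and at 1125 to 2196 in the WT libraries, so every library carried the Trex2 level of its label.

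Complement is a set of plasma and tissue proteins that cut one another in order. The classical arm begins when C1q, with its proteases C1r and C1s, binds antibody or a target surface, after which C4 and C2 are cut to form an enzyme that cuts C3. The alternative arm uses factor B, factor D and properdin to cut more C3, and the released fragments C3a and C5a draw and activate leukocytes through the receptors C3aR and C5aR1. The liver makes most of the circulating proteins, while keratinocytes, fibroblasts, macrophages and endothelial cells of skin make several components locally. The C1 inhibitor, encoded by Serping1, blocks C1r and C1s and also proteases of the contact system.

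The promoters of C3, C1ra and C3ar1 are shown because each holds letters of a binding motif linked to inflammatory control. RefSeq (GRCm38.p6) gave a promoter for 4 of the 8 genes, 250 bases before to 50 bases after the start, read 5′ to 3′ on the strand of the gene. Entries for C4b, C2, Cfb and Serping1 were not used here. Capitals mark the matches. The C3 window is chr17:57228087-57228386 on the minus strand, with C/EBP letters beginning at position -45 from the start. The C1ra window is chr6:124512371-124512670 on the plus strand, with C/EBP letters on the opposite strand at 17 and letters of the GAS motif at 33. The RefSeq start used for C1ra lies downstream of the GENCODE start given with its values, so most of this window is inside the gene as GENCODE places it. The C3ar1 window is chr6:122856108-122856407 on the minus strand, with AP-1 letters at -22.
C3: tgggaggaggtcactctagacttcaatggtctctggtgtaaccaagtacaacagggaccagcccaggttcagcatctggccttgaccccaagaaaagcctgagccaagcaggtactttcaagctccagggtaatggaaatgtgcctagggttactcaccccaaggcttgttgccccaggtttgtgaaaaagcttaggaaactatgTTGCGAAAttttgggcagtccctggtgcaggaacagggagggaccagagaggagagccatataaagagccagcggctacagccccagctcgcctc
C1ra: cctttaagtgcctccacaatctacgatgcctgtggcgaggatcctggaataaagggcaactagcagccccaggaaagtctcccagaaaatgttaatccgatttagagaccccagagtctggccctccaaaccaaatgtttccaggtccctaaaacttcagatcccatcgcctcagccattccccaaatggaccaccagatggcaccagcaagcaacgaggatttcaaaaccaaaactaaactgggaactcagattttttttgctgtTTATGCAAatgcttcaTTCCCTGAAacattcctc
C3ar1: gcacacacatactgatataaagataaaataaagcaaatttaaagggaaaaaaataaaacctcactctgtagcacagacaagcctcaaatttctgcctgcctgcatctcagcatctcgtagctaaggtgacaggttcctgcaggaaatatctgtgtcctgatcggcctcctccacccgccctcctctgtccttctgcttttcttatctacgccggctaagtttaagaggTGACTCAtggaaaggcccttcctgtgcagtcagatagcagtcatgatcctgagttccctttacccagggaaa

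Both strands were searched for 4 motifs, and the 2 matches in the C1ra window did not overlap. The C/EBP letters TTGCNNAA occurred in 10.8% of 32544 promoters of the same length, the GAS letters TTCNNNGAA in 8.33% and the AP-1 letters TGACTCA in 5.19%. The ETS letters GGAAGTG, held by 11% of promoters, were in none of the 4 windows, and the C5ar1 window held none of the 4 motifs. A match of letters is a description of the sequence and no evidence that a factor binds there.

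Depth and the makeup of the libraries moved with genotype. The libraries held 3125366 to 15557862 counted reads in Trex2 KO and 1208896 to 5853454 in WT (exact permutation test of mean log10 reads, two-sided, p = 0.0303). In every library at least 96 reads fell on each of the 8 genes. Trex2 KO replicates 9 and 12 stood apart from the other libraries, with summed levels of 7 basal keratinocyte markers of 179586 and 162921 normalized counts, against 58545 to 109832 in the other 4 Trex2 KO libraries and 37232 to 92128 in WT. Krt14, the main keratin of basal epidermis, averaged 75480.4 ± 35107 normalized counts in Trex2 KO and 41338 ± 18163 in WT (SD, n = 6 and 5). Of 6 hepatocyte markers only albumin was abundant enough to be tested, and the 6 summed to 8.57 to 25.6 normalized counts in Trex2 KO and 15.6 to 29.95 in WT. In such tissue samples, fewer cells of a type and less RNA per cell cannot be told apart.

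All 8 genes had a lower mean in Trex2 KO than in WT skin, but none passed the limma threshold of an adjusted p of 0.05. Log2 fold changes, on the scale of log2(normalized count + 1), ran from -0.96 for C5ar1 to -0.27 for C3, with a median of -0.56, against 0.01 over all tested genes. Over all genes limma called 0.0151% in either direction, and 0.00757% lower in Trex2 KO. An unadjusted p under 0.05 with a lower level in Trex2 KO was found for 5 of the 8 (C2, Cfb, Serping1, C5ar1 and C3ar1), and for 11.5% of all tested genes. edgeR on the recovered reads called 0 of the 8, and DESeq2 on the same reads called 3, C2, Cfb and Serping1, where it called 2.18% of all genes lower. Without Trex2 KO replicates 9 and 12 all 8 log2 fold changes were still negative, as for 48.5% of all genes, and their median was -0.38. In that fit limma called 0 of the 8 and gave 4 of them (C2, Cfb, Serping1 and C5ar1) an unadjusted p under 0.05, where 6% of all genes were lower at that level. The plot of the values by library shows how far the groups overlap for each gene.

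**Figure D1:**
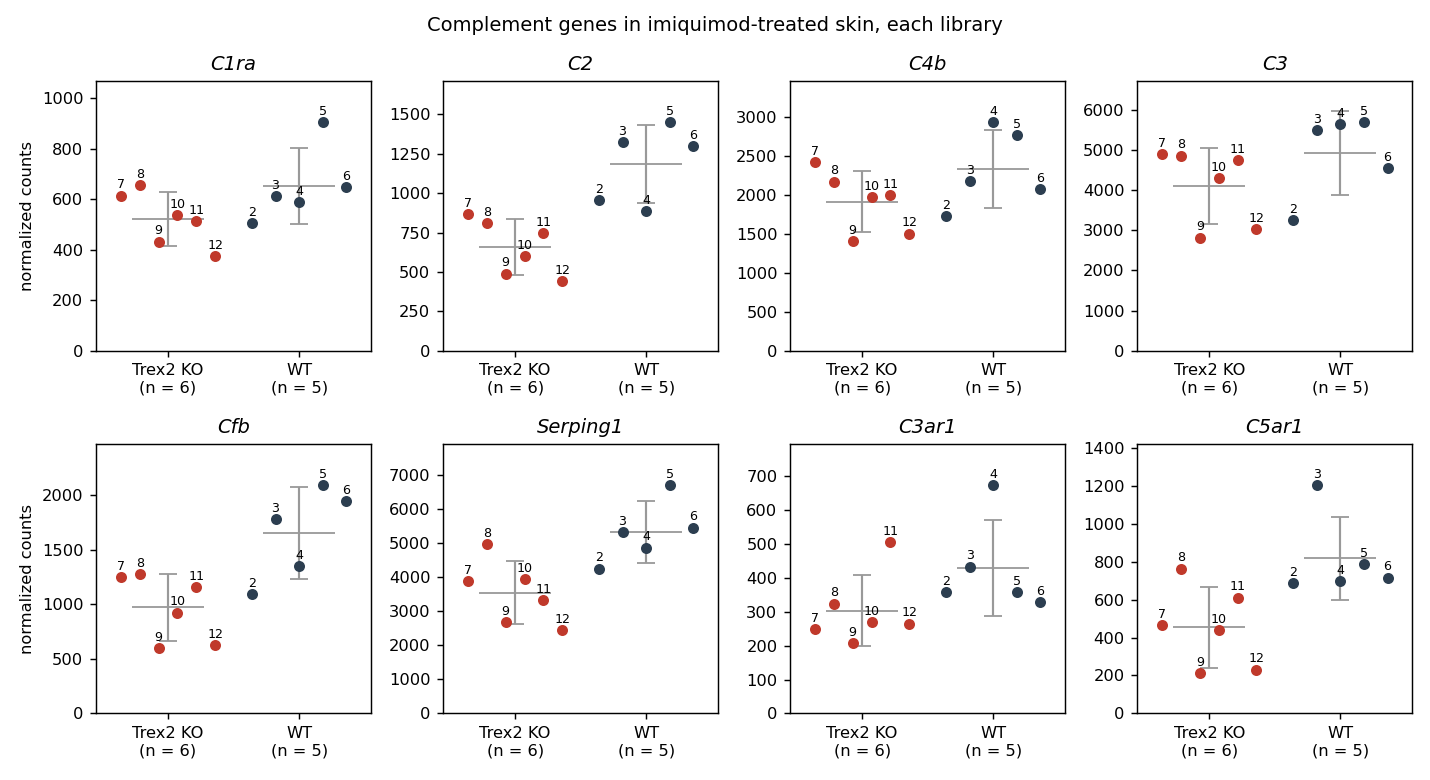
Normalized counts (y axis, linear from 0) of the 8 complement genes in each library, with Trex2 KO on the left and WT on the right of each panel. Points are libraries labelled by replicate number, and grey bars are the mean and SD. C2 is the 1 gene whose 6 Trex2 KO libraries, at most 868, all lie below the WT libraries, at least 884, and replicates 9 and 12 are the lowest points in 7 of the 8 panels.

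The proteases of the classical arm were C1ra and C2. C1ra, one of the mouse genes for the C1r protease, had 614, 657, 432, 538, 512 and 375 normalized counts in Trex2 KO replicates 7 to 12, against 506, 614, 588, 905 and 646 in WT replicates 2 to 6. The groups overlapped, with 2 Trex2 KO libraries below every WT library. In limma the log2 fold change of C1ra was -0.32 (SE 0.17, adjusted p = 0.268). It was -0.15 without Trex2 KO replicates 9 and 12, and -0.195 without WT replicate 5, the highest library. C1ra (ENSMUSG00000055172.10) lies on the plus strand of chromosome 6 from 124512405 to 124523443 (GRCm38, GENCODE M21), 6901 bases from C1s1, the gene of its partner protease. C1s1, listed under the older symbol C1s, averaged 425 ± 49.9 normalized counts in Trex2 KO and 516 ± 120.1 in WT (log2 fold change -0.25, SE 0.16, limma adjusted p = 0.337). C1ra has near copies, C1rb and Gm18840, in which 50.8% of the 50-base stretches of its longest transcript occur exactly, so its value is uncertain where reads could be split among them.

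C2, whose product is the protease part of the C3-cutting enzyme, had 868, 811, 489, 600.2, 749 and 440.4 normalized counts in the Trex2 KO libraries, against 956, 1322, 884, 1450.5 and 1298 in the WT libraries. The groups did not overlap, a pattern seen for 1.29% of all tested genes, although the highest Trex2 KO and the lowest WT library lay close together. The Trex2 KO mean was 55.8% of the WT mean (659 ± 176 and 1182 ± 247, SD, n = 6 and 5). C2 had a log2 fold change of -0.86 (SE 0.20, limma p = 0.000748, adjusted p = 0.108) and an exact permutation p of 0.00433, the smallest that a two-sided test on 462 splits gives. Without Trex2 KO replicates 9 and 12 it was -0.63. DESeq2 gave it an adjusted p of 0.0137 and edgeR one of 0.13. Leaving out WT replicate 4, its lowest WT library, moved the limma adjusted p to 0.033, where 2.1% of all genes were called lower, and this was the only library whose removal gave a limma call of any of the 8 genes. Only 2.54% of tested genes had a more negative log2 fold change than C2.

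C4b, the source of the C4 protein that anchors the enzyme to a surface, had 2427, 2175, 1406, 1974, 1997 and 1505 normalized counts in the Trex2 KO libraries, against 1731, 2175, 2938, 2775 and 2079 in the WT libraries. The ranges overlapped broadly, and limma put C4b at -0.29 on the log2 scale (SE 0.18, adjusted p = 0.323). Without Trex2 KO replicates 9 and 12 it was -0.10. C4b (ENSMUSG00000073418.4) runs from 34728380 to 34743882 on the minus strand of chromosome 17, 112491 bases from Cfb. C4a, a close copy 65209 bases away, stood at 5.21 to 11.8 normalized counts in Trex2 KO and 6.35 to 11.1 in WT, under the minimum for testing. Of the 50-base stretches of C4b 35.2% are identical in C4a, so some reads of either gene could have been assigned to both or neither.

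C3, the protein on which all arms meet, was among the more abundant transcripts, at place 126 of the 13215 tested genes by mean normalized count. It had 4909, 4862, 2821, 4294, 4753 and 3038 normalized counts in the Trex2 KO libraries, against 3248, 5496, 5646, 5696 and 4547 in the WT libraries. WT replicate 2 lay with the 2 lowest Trex2 KO libraries, and the other libraries of both groups lay between 4294 and 5696. For C3 limma gave -0.27 on the log2 scale (SE 0.20, adjusted p = 0.424), and -0.04 without Trex2 KO replicates 9 and 12. It was -0.16 without replicate 9 alone and -0.41 without WT replicate 2. The gene (ENSMUSG00000024164.15) spans 57203970 to 57228136 on the minus strand of chromosome 17.

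Cfb, factor B of the alternative arm, had 1248, 1275, 598, 923, 1153 and 628 normalized counts in the Trex2 KO libraries, against 1094, 1778, 1351, 2093 and 1947 in the WT libraries. All 6 Trex2 KO libraries lay below the WT mean, while 3 of them lay above WT replicate 2. Its Trex2 KO mean was 58.7% of the WT mean. Cfb had a log2 fold change of -0.79 (SE 0.24, exact permutation p = 0.0216, limma adjusted p = 0.108), with a DESeq2 adjusted p of 0.0411. It was -0.49 without Trex2 KO replicates 9 and 12. Cfb and C2 are neighbours on the minus strand of chromosome 17, Cfb from 34856374 to 34862518 and C2 from 34862604 to 34898265, with 85 bases between them. A readthrough gene, Gm20547, covers 79.5% of the exon bases of Cfb and 42.8% of those of C2, and its own row ran at 1.12 ± 0.022 times Cfb in Trex2 KO and 1.09 ± 0.016 times in WT (SD, n = 6 and 5). Of the exon bases of Gm20547, 57.6% lie in Cfb and 42.4% in C2. If the submitters' annotation was alike, its row was made of reads that it shares with those genes. Whether such reads were also counted in full for Cfb and C2 is not given in the sources used here. Cfb and C2 share 0 exon bases with each other, but each overlaps Gm20547, so their rows may not be fully separate measurements.

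Serping1, the C1 inhibitor, was about as abundant as C3, at place 128. It had 3876, 4979.7, 2685, 3941, 3314 and 2455 normalized counts in the Trex2 KO libraries, against 4248, 5329, 4867, 6708 and 5454 in the WT libraries. Only Trex2 KO replicate 8 reached the WT range. The Trex2 KO mean was 66.6% of the WT mean (log2 fold change -0.61, SE 0.19, exact permutation p = 0.013, limma adjusted p = 0.111), and the DESeq2 adjusted p was 0.047. Without Trex2 KO replicates 9 and 12 it stood at -0.40. Serping1 (ENSMUSG00000023224.12) lies on the minus strand of chromosome 2 from 84765387 to 84775444, apart from the others.

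The receptors are carried by myeloid cells. C5ar1, the main receptor of C5a on neutrophils and macrophages, had 467, 764, 214, 439, 611 and 230.4 normalized counts in the Trex2 KO libraries, against 688, 1205, 699, 787 and 715 in the WT libraries. Trex2 KO replicate 8 lay inside the WT range and the other 5 lay below it. C5ar1 had the most negative log2 fold change of the 8, -0.96 (SE 0.31, exact permutation p = 0.0173, limma adjusted p = 0.114), with a DESeq2 adjusted p of 0.0711. It was -0.52 without Trex2 KO replicates 9 and 12 and -0.60 with log10 depth as a covariate. C5ar1 (ENSMUSG00000049130.6) lies on the minus strand of chromosome 7 from 16246743 to 16259540. The neutrophil markers stood lower as well, with 12 of 12 tested below 0 and a median log2 fold change of -1.15. Their median was -0.68 without Trex2 KO replicates 9 and 12. Summed over 14 listed genes the neutrophil markers reached 17259 to 88846 normalized counts in Trex2 KO against 49644 to 119940 in WT. S100a8 and S100a9 weighed most in this sum. Their means were 15342 and 17986 in Trex2 KO, where the sum averaged 45594, and 31144 and 35346 in WT, where it averaged 92439. The part of the neutrophil markers in the C5ar1 value was not tested.

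C3ar1, the receptor of C3a, had 249.9, 324, 207, 271, 505 and 265 normalized counts in the Trex2 KO libraries, against 358, 433, 675, 358 and 329.5 in the WT libraries. Trex2 KO replicate 11 and WT replicate 4 were the highest of their groups, and 5 of 6 Trex2 KO libraries lay below every WT library. C3ar1 stood at a log2 fold change of -0.51 (SE 0.23, exact permutation p = 0.0909, limma adjusted p = 0.193), and at -0.33 without WT replicate 4. C3ar1 (ENSMUSG00000040552.8) lies on the minus strand of chromosome 6 from 122847138 to 122856161. The 12 monocyte and macrophage markers were split, 8 negative and 4 positive (median log2 fold change -0.30). They summed to 13510 to 24470.3 normalized counts in Trex2 KO and 18554 to 27260 in WT, and their part in the C3ar1 value was not tested.

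Levels per kilobase of exon put Serping1 first, with 1523 ± 399 normalized counts per kilobase in Trex2 KO and 2289 ± 391 in WT (SD, n = 6 and 5). C3 followed with 799.7 ± 184 in Trex2 KO and 958 ± 204 in WT, below Serping1 in all 11 libraries and above Cfb in all 11. Cfb (344 ± 108 in Trex2 KO and 585 ± 148 in WT) and C4b (336 ± 68.8 in Trex2 KO and 411 ± 88.3 in WT) did not differ beyond their spread, since Cfb was the higher in 3 of 6 Trex2 KO and 4 of 5 WT libraries. C5ar1 (177 ± 83.2 in Trex2 KO and 319 ± 85.3 in WT) and C2 (170.3 ± 45.4 in Trex2 KO and 305 ± 63.9 in WT) were likewise mixed, with C5ar1 the higher in 3 of 6 Trex2 KO and 3 of 5 WT libraries. C1ra (175 ± 35.7 in Trex2 KO and 219 ± 50.5 in WT) was below C2 in 2 of 6 Trex2 KO libraries and in 5 of 5 WT libraries. The length used was that of all annotated exons joined, 3872 bases for C2, 2570 for C5ar1 and 2981 for C1ra. Their longest transcripts have 2641, 2540 and 2981 bases. The place of C2 beside C5ar1 and C1ra therefore depends on the length chosen, and a shorter length would raise C2. C3ar1 was the lowest of the 8, at 48.1 to 117 in Trex2 KO and 76.5 to 157 in WT, and was below C1ra in every library.

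**Figure D2:**
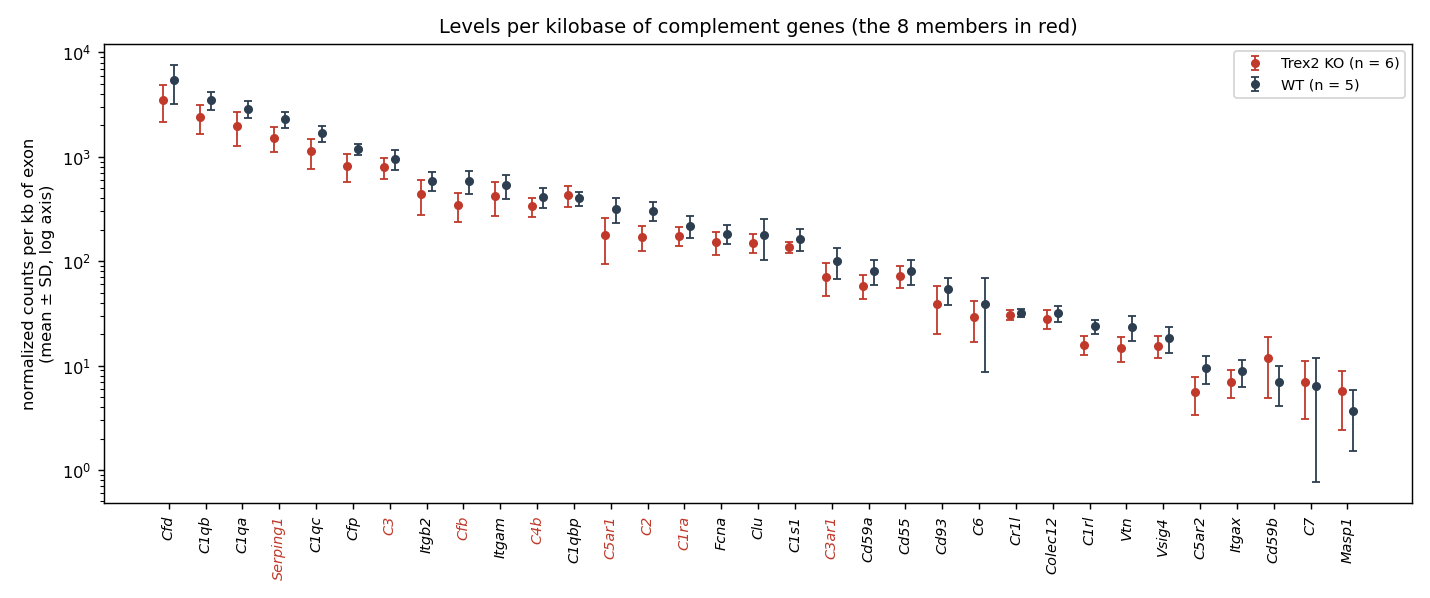
Levels of tested complement genes as normalized counts per kilobase of exon (y axis, log scale), with Trex2 KO left of WT for each gene, points for the mean and bars for the SD (n = 6 and 5). The 8 described genes, named in red, run from Serping1 at 1523 in Trex2 KO and 2289 in WT to C3ar1, whose libraries lie at 48.1 to 117 in Trex2 KO and 76.5 to 157 in WT.

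The rest of the cascade was read from 5 lists that hold 59 complement genes with the 8 included. The table held 58 of them and 34 were tested. Of these 34, 30 were negative (median log2 fold change -0.37), where 49% of all tested genes did. limma, edgeR and DESeq2 called 0 of the other 26, and 8 of the 26 had an unadjusted limma p under 0.05 with a lower level in Trex2 KO and 0 with a higher one, where 11.5% of all tested genes were lower and 12.9% higher at that level. The median of the other 26 was -0.31, and -0.13 without Trex2 KO replicates 9 and 12.

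The first component C1q is made of 3 chains, which macrophages produce. C1qa, C1qb and C1qc had log2 fold changes of -0.60 (SE 0.24), -0.59 (SE 0.22) and -0.62 (SE 0.21), with limma adjusted p values of 0.151, 0.14 and 0.125. C1qb averaged 2600.0 ± 797 normalized counts in Trex2 KO and 3814 ± 752 in WT (SD, n = 6 and 5). The C1r-like protease gene C1rl was low, at 35.4 to 58.9 normalized counts in Trex2 KO and 59.9 to 85.7 in WT. The groups did not overlap (log2 fold change -0.58, SE 0.18, limma adjusted p = 0.111). Such a gap with Trex2 KO lower was seen for 1.29% of all tested genes. Fcna, a ficolin of the lectin arm made by macrophages, stood at -0.27 (SE 0.20). Masp1, a protease of the lectin arm, was positive at 0.74 (SE 0.54) with only 22.2 to 105 normalized counts in Trex2 KO and 5.44 to 63.4 in WT. Mbl1 and Mbl2, the mannose-binding lectins known mainly from liver, had no reads in any library.

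In the alternative arm, Cfd, which encodes factor D or adipsin and is known as an adipocyte product, was the highest of all complement genes per kilobase, at 3535 ± 1378 in Trex2 KO and 5397 ± 2204 in WT. limma placed Cfd at -0.61 on the log2 scale (SE 0.26, adjusted p = 0.176). The 6 adipocyte markers also had negative log2 fold changes (median -0.35), and their part in the Cfd value was not tested. Cfp, properdin, which myeloid cells store and release, had a log2 fold change of -0.59 (SE 0.20, limma adjusted p = 0.125), with 5 of 6 Trex2 KO libraries below every WT library. All 4 genes of this list were negative, with a median of -0.60.

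The terminal components that form the membrane pore were scarce. Of 7 genes only C6 and C7 were tested, at -0.27 (SE 0.37) and 0.82 (SE 0.80). C7 averaged 18.8 normalized counts in Trex2 KO and 17.0 in WT, with 0 in WT replicate 3, and DESeq2 put its log2 fold change at 0.04. C8a and C8b had no reads. Hc, the gene of C5, from which the C5ar1 ligand is cut, had 11 reads over the Trex2 KO libraries and 8 over the WT libraries.

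Among 8 tested regulators 7 were negative and the median was -0.16, the nearest to 0 among the 4 lists with more than 2 tested genes. Serping1 and Vtn, vitronectin, which keeps the pore out of membranes, stood at -0.61 and -0.64 (SE 0.19 and 0.24). Cd55, whose product dismantles the C3-cutting enzymes on cell surfaces, stood at -0.13 (SE 0.20), and at 0.00 without Trex2 KO replicates 9 and 12. Of the 9 tested receptors 8 were negative (median -0.50). C5ar2, the second receptor of C5a, stood at -0.79 (SE 0.32) with 8.73 to 28.9 normalized counts in Trex2 KO and 19.1 to 43.4 in WT. Itgam and Itgb2, the chains of complement receptor 3, stood at -0.39 (SE 0.26) and -0.50 (SE 0.25), and at -0.10 and -0.15 without Trex2 KO replicates 9 and 12.

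**Figure D3:**
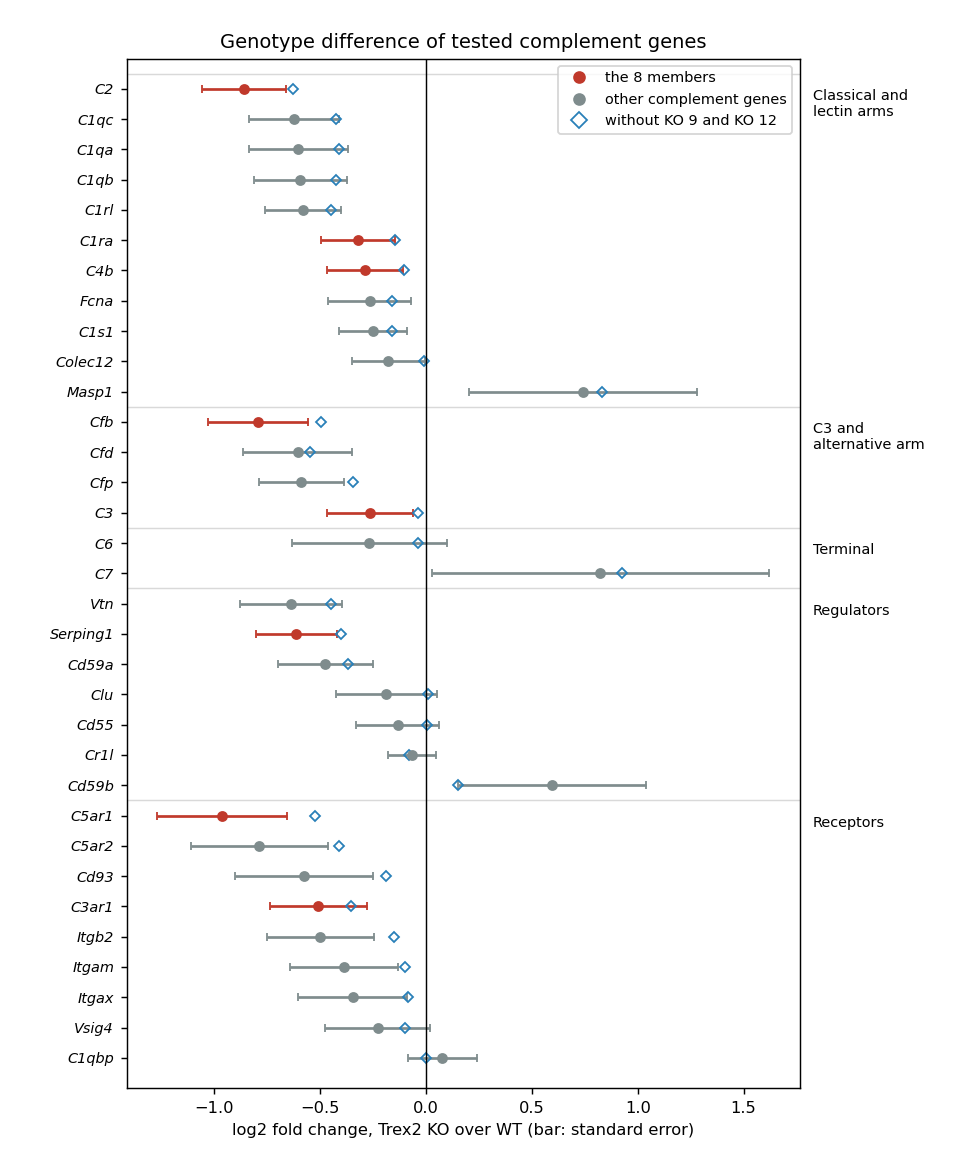
Log2 fold change, Trex2 KO over WT (x axis, bars for the standard error), of tested complement genes by arm of the cascade, with the 8 described genes in red and open diamonds for the fit without Trex2 KO replicates 9 and 12. Most genes lie left of 0, down to C5ar1 at -0.96, and most diamonds lie nearer to 0 than their points.

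Regulators of complement transcription, such as IRF1, C/EBP factors and the cytokines that act on them, were read from a list of 15 genes, of which 14 were tested and 13 were negative (median log2 fold change -0.43). limma called 0 and found an unadjusted p under 0.05 for 4, all lower, beside 11.5% lower and 49% negative over all tested genes. Irf1, an interferon-induced transcription factor, had 94.5 to 139 normalized counts in Trex2 KO and 154 to 195 in WT, with no overlap (log2 fold change -0.54, SE 0.14, limma adjusted p = 0.108, DESeq2 adjusted p = 0.0221). All Trex2 KO libraries lay below all WT libraries for 1.29% of all tested genes, and DESeq2 called 2.18% lower. Tnf, an inflammatory cytokine, stood at -1.33 (SE 0.53, limma adjusted p = 0.155), and at -0.51 without Trex2 KO replicates 9 and 12. In that fit the list had a median of -0.10 with 8 of 14 negative. The genes that neighbour C2, Cfb and C4b on chromosome 17 gave another picture, with 5 of 11 tested negative and a median of 0.03. The smallest p values among them belonged to Tnxb, a matrix protein gene (0.39, SE 0.18, limma adjusted p = 0.211), and Hspa1a, a heat-shock protein gene (0.54, SE 0.27, limma adjusted p = 0.234).

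Within the genotypes the 8 genes varied together to different degrees. Trex2 KO replicates 9 and 12 were the lowest 2 of 11 libraries for 7 of the 8 genes, and for C3ar1 replicate 9 was the lowest and replicate 12 the third lowest. The same 2 libraries had the lowest summed macrophage and endothelial markers and the highest keratinocyte markers, and the part of these in the complement values was not tested. After each genotype mean was subtracted, C2 and Cfb had a Pearson r of 0.95 and a Spearman rho of 0.94 over the 11 libraries, Serping1 and C1ra 0.95 and 0.96, and C3 and C4b 0.92 and 0.90. Without Trex2 KO replicates 9 and 12 the r of these pairs was 0.91, 0.91 and 0.85 over 9 libraries. C2 and Cfb share exon bases with Gm20547, and all genes share the libraries and their depth, so these are descriptions. C3ar1 had an r of 0.04 with C1ra, 0.06 with C2, 0.09 with Serping1 and 0.22 with Cfb, but of 0.54 with C3 and 0.48 with both C4b and C5ar1. The median r over the 28 pairs was 0.76, and 0.43 without Trex2 KO replicates 9 and 12.

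**Figure D4:**
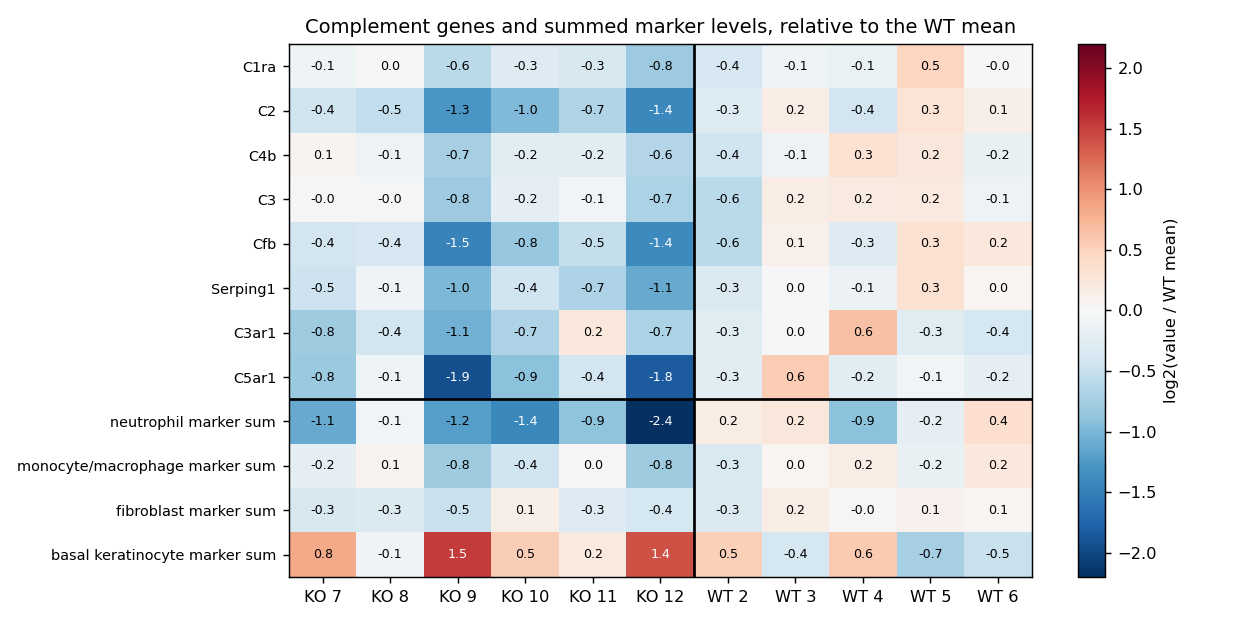
Levels of the 8 complement genes and sums of 4 marker lists in each library (columns, Trex2 KO replicates left of WT), as log2 of the value over the WT mean (colour scale). Trex2 KO replicates 9 and 12 are the lowest columns for most complement genes, at -1.94 and -1.83 for C5ar1, and the highest for basal keratinocyte markers, at 1.54 in replicate 9.

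The genes whose pattern was most like each of the 8, cascade genes included, were found by the same within-genotype Pearson r among 9978 tested genes. Genes with placeholder names were left out of this search, among them Gm20547, whose row ran close to that of Cfb. Pdia5, a protein disulfide isomerase of the endoplasmic reticulum, and Nucb1 were nearest to C2 (r = 0.98 and 0.97). Scarb1, the HDL receptor, and Syt15 were nearest to Cfb (0.97 and 0.96). Rgl1 and Ace, the angiotensin-converting enzyme, were nearest to C3 (both 0.95). C3 and Man1c1 were nearest to C4b (both 0.92). C1ra and Glul, glutamine synthetase, were nearest to Serping1 (0.95 and 0.94), and Serping1 and Rhoj were nearest to C1ra (0.95 and 0.92). Pik3r5, a subunit of a leukocyte PI3-kinase, and Csf1r, the receptor that macrophages need to survive, were nearest to C3ar1 (0.96 and 0.94). Zfp36, which destabilises inflammatory mRNAs, and Sp100 were nearest to C5ar1 (both 0.98). These are the highest of many values over 11 libraries and say nothing of shared control.

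Ratios of 2 genes within a library do not depend on its size factor. For 11 pairs chosen after their values were seen, exact permutation tests were adjusted over the pairs, and none reached an adjusted p of 0.05. Serping1 was 6.74 ± 0.57 times C1ra in Trex2 KO and 8.24 ± 0.49 times in WT (SD, n = 6 and 5, exact permutation p = 0.00866, adjusted p = 0.0952). Only Trex2 KO replicate 8, at 7.58, exceeded the lowest WT library, at 7.41. C3 was 4.35 ± 0.44 times Cfb in Trex2 KO and 3.06 ± 0.69 times in WT (exact permutation p = 0.0173, adjusted p = 0.0952). The ratio of Cfb to C2 was 1.46 ± 0.13 in Trex2 KO and 1.39 ± 0.16 in WT (exact permutation p = 0.459, adjusted p = 0.631). C5ar1 per Itgam was 0.211 ± 0.055 in Trex2 KO and 0.311 ± 0.065 in WT (exact permutation p = 0.0346, adjusted p = 0.127).

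The differences kept their direction under every setting tried. Over 24 alternatives C2 ranged from -0.96 to -0.59 and had an unadjusted p under 0.05 in all 24, while C3 ranged from -0.41 to -0.04 and had none. These alternatives refit the same 11 libraries or parts of them, so they are not independent tests. The adjusted p of C2 ran from 0.0137 (DESeq2) to 0.892 (limma with the depth covariate). With log10 depth as a covariate the log2 fold changes of C2, Cfb and Serping1 were -0.59, -0.59 and -0.54. Their unadjusted limma p values in that fit of all 11 libraries were 0.0339, 0.0861 and 0.0586, each with an adjusted p of 0.892. Only C2 of the 8 genes had an unadjusted p under 0.05 there. Over all 13215 tested genes 538 did, in either direction, against 3225 in the main fit. In libraries of 3000000 to 8000000 reads the log2 fold changes were -0.68, -0.67 and -0.49. That small set held Trex2 KO replicates 7, 8 and 9 and WT replicates 2, 4, 5 and 6. Trex2 KO replicate 9 was among the libraries that stood apart.

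**Figure D5:**
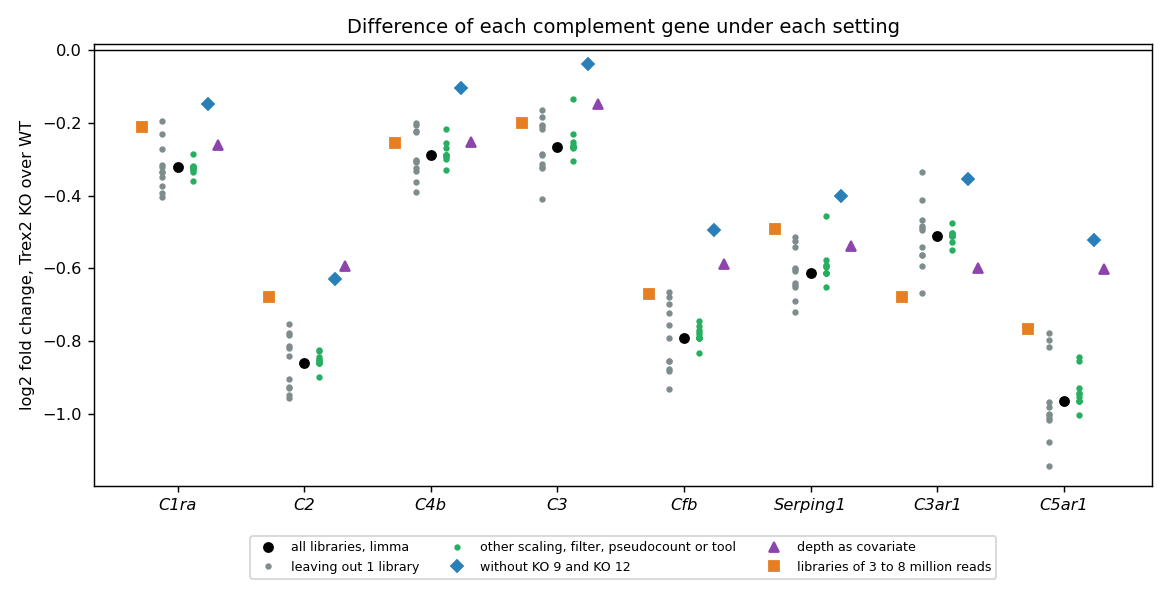
Log2 fold change, Trex2 KO over WT (y axis), of each of the 8 complement genes (x axis) in the fit of all libraries (black) and in 24 alternatives, with symbols for single libraries left out, other scaling or tools, no replicates 9 and 12, depth as a covariate and libraries of similar depth. All points lie below 0, and the fit without replicates 9 and 12 is nearest to 0 for C1ra, C4b, C3, Cfb, Serping1 and C5ar1.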

How the data were processed

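RNA from pulverized back skin of 11 mice was enriched for mRNA and sequenced, per the labels' protocols. The authors deposited 1 normalized signal per gene and library, a count divided by a size factor. TopHat2 2.0.8, featureCounts 1.4.6, DESeq2 1.8.1 and GRCm38 stand in the submitters' processing notes. The sources used here do not give strand, annotation or the treatment of shared reads, so reads of overlapping genes on opposite strands cannot be told apart. All deposited values were whole multiples of 1 read (100% within 0.01), from which reads were recovered, and 1 read was worth 0.347 to 1.74 normalized counts in Trex2 KO and 0.908 to 4.51 in WT. Counting error is the only error that read numbers cover. Every pair of libraries of the same genotype differed by more than sampling noise (chi-square per degree of freedom at least 4.48). Nothing in the labels ties mice to litters or batches, and p-values measure the spread between these samples.

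The main test was limma 3.58.1 (R 4.3.3, trended variances) on log2(normalized count + 1) of the 13215 genes with a mean of at least 10, with Benjamini-Hochberg adjustment over all of them and a threshold of 0.05. The fold change can understate or overstate changes of low genes. Recovered reads were tested with edgeR 4.0.16 and DESeq2 1.42.0, which called 4 and 617 genes, against 2 in limma. The test steps were checked on simulated data with known changes larger than those of the 8 genes. The simulation held no differences in makeup between libraries, so it does not show how the tests behave under them. Exact permutation tests used 462 splits, two-sided. The 8 genes, the other complement and marker lists and the tests were chosen with earlier results of these data known. Named genes were the 8, the complement lists, the 2 of smallest p in each of 2 further lists, and the 2 most alike per gene with a mean of at least 50. Some genes that this rule takes are not reported here. Krt14 was named after its value was seen. Of the listed symbols, 5 were found under older names and 2 (C1rb and Tp63) had no row. Positions are from GENCODE M21. Promoters are from RefSeq.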

Additional observations from a re-analysis of the deposited data

Results flagged for a closer look

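Among 68 groups (34 genes in 2 genotypes) 4 had 1 library far from the rest by Dixon's gap criterion, where chance flags about 1 in 20. C5ar1 had 1205 normalized counts in WT replicate 3, with 787 in the nearest WT library. The same criterion picked out Cfd in Trex2 KO replicate 7 (5743, nearest 3424) and in WT replicate 2 (8551, nearest 4477), and C6 in WT replicate 4 (330.2, nearest 108).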

How the results depend on the processing

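Of the 8 complement genes 0 were called by limma, which called 0.0151% of all tested genes in either direction. DESeq2 on recovered reads called 3 (C2, Cfb and Serping1), where it called 2.18% of all tested genes lower. Leaving out 1 library each gave 0 to 1, and every other alternative gave 0. The 1 was C2 without WT replicate 4, where limma called 2.1% of all tested genes lower, against 0.00757% with all libraries. Of the other 26 complement genes 0 were called under every alternative. All 8 genes had negative values under all 24 alternatives. Over the 34 tested complement genes, 28 to 31 were negative when libraries were left out or scaling or the tool was changed, and with no filter on level 40 of 53 were. Without Trex2 KO replicates 9 and 12 the values of 6 genes shrank by over 1.5 times, to -0.04 for C3, -0.10 for C4b, -0.15 for C1ra, -0.40 for Serping1, -0.49 for Cfb and -0.52 for C5ar1. Quantile normalization gave C3 -0.13. No scaling moved the median of all genes beyond 0.04 in either direction. No paired analysis was possible because the replicate numbers of Trex2 KO (7 to 12) and WT (2 to 6) share none. Depth limits low genes most, since 3 reads were worth up to 5.21 normalized counts in Trex2 KO and 13.5 in WT.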
